A study of Homo sapiens with 22 samples.

Results

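The comparison described here is that of Caco-2 cells exposed to faecal water from antibiotic-treated mice (FWatb) with Caco-2 cells exposed to the vehicle. Its members were chosen by treatment label, and they are the 7 FWatb libraries (replicates 1, 2, 3, 4, 6, 7 and 8) and the 4 PBS libraries (replicates 1 to 4), 11 of 22 libraries in all. Caco-2 is a human line derived from a colorectal adenocarcinoma and serves as a stand-in for gut epithelium, here grown for 48 h before exposure. The cells carried no genetic change according to their labels. Exposure lasted 48 h, and the test fluid made up 10% of the culture medium. PBS, phosphate-buffered saline, was the vehicle in which the faecal water was made. Faecal water is the centrifuged supernatant of mouse faeces homogenised in PBS, so it carries soluble faecal content and no defined compound. FWatb came from mice that had received neomycin, vancomycin and meropenem in their drinking water for 7 to 10 days, so its bacterial content was depleted by all 3 drugs together. The other groups in the series are faecal water of the same mice without antibiotics (FWctl, 7 libraries) and the antibiotic cocktail itself (ATB, 4 libraries). RNA was sequenced after ribosomal RNA depletion. The FWatb libraries come from separate mice, whereas nothing says whether the PBS libraries come from separate cultures, so p-values for them measure the spread between these samples, which may be technical.

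Faecal water holds bacterial products such as short-chain fatty acids, secondary bile acids, indoles and cell wall fragments, together with host and dietary molecules. Intestinal epithelial cells read some of these through the aryl hydrocarbon receptor (AHR), which induces CYP1A1, and through pattern recognition receptors and NF-kB, which induce chemokines. Antibiotic treatment of mice is known to lower many bacterial metabolites in the gut. The amounts of bacterial, host and dietary molecules and of the drugs themselves in FWatb are not known here. The comparison therefore asks what depleted faecal water still does to an epithelial cell.

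Total counts ranged from 10335253 to 18449825 in the PBS libraries and from 9085215 to 12194668 in the FWatb libraries. The libraries of the series fall into a low set and a high set by how much of their counts the ribosomal DNA (rDNA) repeat transcripts took, with the border at 0.5%. All FWatb libraries were in the high set, from 2.08% to 5.45%. PBS replicates 1 and 2 were in the high set (1.87% and 2.60%), and PBS replicates 3 and 4 in the low set (0.0163% and 0.0230%). The share of counts on the mitochondrial genome was 26.0% to 29.0% under FWatb and 30.4% to 33.6% under PBS. The comparison was therefore repeated within the high-rDNA libraries, with PBS replicates 1 and 2 only. Of 196 named genes that passed with all PBS libraries, 124 also passed there with the same direction. The 12 largest rises and 12 largest falls among them were chosen to pass in both fits, so this count is partly fixed beforehand. The counts over all genes are given below. FWatb replicate 6 stands apart from the other FWatb libraries. On the first principal component of the 11 libraries (20.9% of the variance) it lay at -12.5, among the PBS libraries (-12.6 to -5.98), whereas the other FWatb libraries lay from 2.31 to 21.5. On the second (12.4%) it lay at 10.4, outside the PBS range (-12.6 to 1.63) and within that of the other FWatb libraries (-13.8 to 11.1). The counts of all genes that passed and of ribosome biogenesis genes, and the medians of 19 lists, are given with and without it. Epithelial markers were present in all 11 libraries, with raw counts of 4917 to 10932 for EPCAM, 8493 to 19606 for CDH17 and 2327 to 4795 for VIL1. The markers KRT20 (6 to 36), LGALS4 (6 to 29) and CDX1 (0 to 2) of the same list were low, whereas ALPI had 188 to 339 and GPA33 38 to 179. Of 14 leukocyte markers, FCGR3A and HLA-DRA had no count in any of the 11 libraries, PTPRC had at most 2, and the summed level of the list was 187 to 220.0 under PBS and 171 to 248 under FWatb, most of it LYZ and CD14. Among 12 mesenchymal and endothelial markers, KDR had no count and DCN and ACTA2 at most 1, and the summed level was 453 to 467 under PBS and 355 to 459.5 under FWatb. Only PDGFRB passed the test in that list, with a log2 fold change of -0.72 (adjusted p = 6.78e-05), and none passed in the leukocyte list. All values named levels below are normalised counts, scaled by the TMM method to a common library size, and they compare libraries and not genes, since they are not divided by gene length.

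FWatb changed the transcriptome of Caco-2 cells widely but by small amounts. With edgeR's quasi-likelihood test over 20373 genes in a fit of all 4 groups, 1231 genes (6.04%) were higher and 804 genes (3.95%) lower than under PBS at an adjusted p below 0.05. The median log2 fold change of the higher genes was 0.37 and that of the lower genes -0.42. The absolute log2 fold change exceeded 1 for 47 genes that rose and 68 that fell. With library size as the only scaling, 2090 genes rose and 411 fell, so the balance of rises over falls depends on the normalisation (60.5% against 83.6% of the genes that passed). Within the high-rDNA libraries, 767 of 18286 genes (4.19%) rose and 360 (1.97%) fell. Of the 2035 genes that passed in the 4-group fit, 2015 could be tested in the high-rDNA libraries and 989 also passed there. Both fits share all FWatb libraries and PBS replicates 1 and 2, so the second is not independent of the first. Without FWatb replicate 6, 1565 genes (7.73%) rose and 1024 (5.06%) fell. By the same test, 52 genes (0.255%) rose and 6 (0.0295%) fell under the antibiotic cocktail, and 4942 (24.3%) rose and 4508 (22.1%) fell under faecal water of untreated mice. These 3 comparisons share the PBS libraries.

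**Figure D1:**
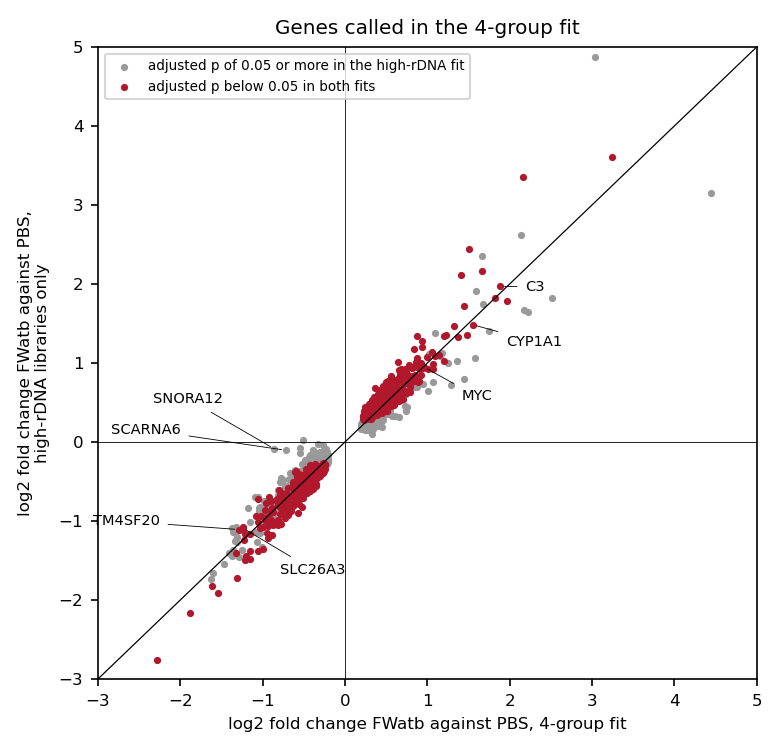
Log2 fold change of FWatb against PBS in the 4-group fit (x axis) and in the high-rDNA libraries only (y axis) for genes with an adjusted p below 0.05 in the 4-group fit, one point per gene, with the line of equal values. The points follow the line, red points (989 genes) pass in both fits, and SNORA12 and SCARNA6 are low in the 4-group fit only; 1 gene lies outside the axes.

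Among genes with a mean level of at least 100, separated groups and an adjusted p below 0.05 also in the high-rDNA libraries, 383 rose and 149 fell, and the 12 largest of each are described here. The libraries are of bulk RNA, in which fewer cells that express a gene and less RNA per cell cannot be told apart. C3, complement component 3 and the central protein of the complement cascade (chr19:6677704-6730562, GRCh38), was 268, 284, 312 and 302 in PBS replicates 1 to 4 and between 561 and 1470.0 (median 935) in the 7 FWatb libraries, a 3.71-fold difference of means (log2 fold change 1.89 ± 0.16 SE, adjusted p = 6.41e-11). Every FWatb library lay above every PBS library, and FWatb replicate 6 was the lowest at 561. CLDN2, the claudin that forms cation and water pores in leaky tight junctions, was 60.4, 39.0, 51.9 and 65.7 in PBS replicates 1 to 4 and between 108 and 165 (median 118) in the 7 FWatb libraries (log2 fold change 1.23 ± 0.17 SE, adjusted p = 2.25e-06). PLB1, a phospholipase of the brush border, was 67.9, 81.6, 62.9 and 56.7 in PBS replicates 1 to 4 and between 138 and 175 (median 153) in the 7 FWatb libraries (log2 fold change 1.20 ± 0.12 SE, adjusted p = 8.15e-09). For both genes the groups did not overlap and FWatb replicate 6 lay within the range of the other FWatb libraries. GPX2, the gastrointestinal glutathione peroxidase, was 146, 285, 227 and 199.6 in PBS replicates 1 to 4 and between 296 and 567 (median 479) in the 7 FWatb libraries (log2 fold change 1.09 ± 0.14 SE, adjusted p = 1.33e-06). The lowest FWatb level of GPX2, in replicate 6, was close to the highest PBS level. ACTL8, an actin-like protein, ranged from 471 to 596 under PBS and from 654 to 1233 under FWatb (log2 fold change 1.00 ± 0.11 SE, adjusted p = 2.54e-08). UCHL1, a ubiquitin hydrolase, ranged from 389.7 to 458 under PBS and from 558 to 931 under FWatb (log2 fold change 0.92 ± 0.10 SE, adjusted p = 2.1e-08). In the high-rDNA libraries the log2 fold changes were 1.97 for C3, 1.35 for CLDN2, 1.03 for PLB1 and 1.09 for GPX2. For every gene whose groups did not overlap, the exact two-sided permutation test of 7 against 4 libraries gave p = 0.00606, the smallest its 330 arrangements allow. Separation was a condition for choosing the largest changes, so for them this p-value was fixed beforehand and adds no support. Over all genes tested, 6.9% had groups that did not overlap. Against PBS replicates 1 and 2 alone, the 36 arrangements cannot go below 0.0556.

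**Figure D2:**
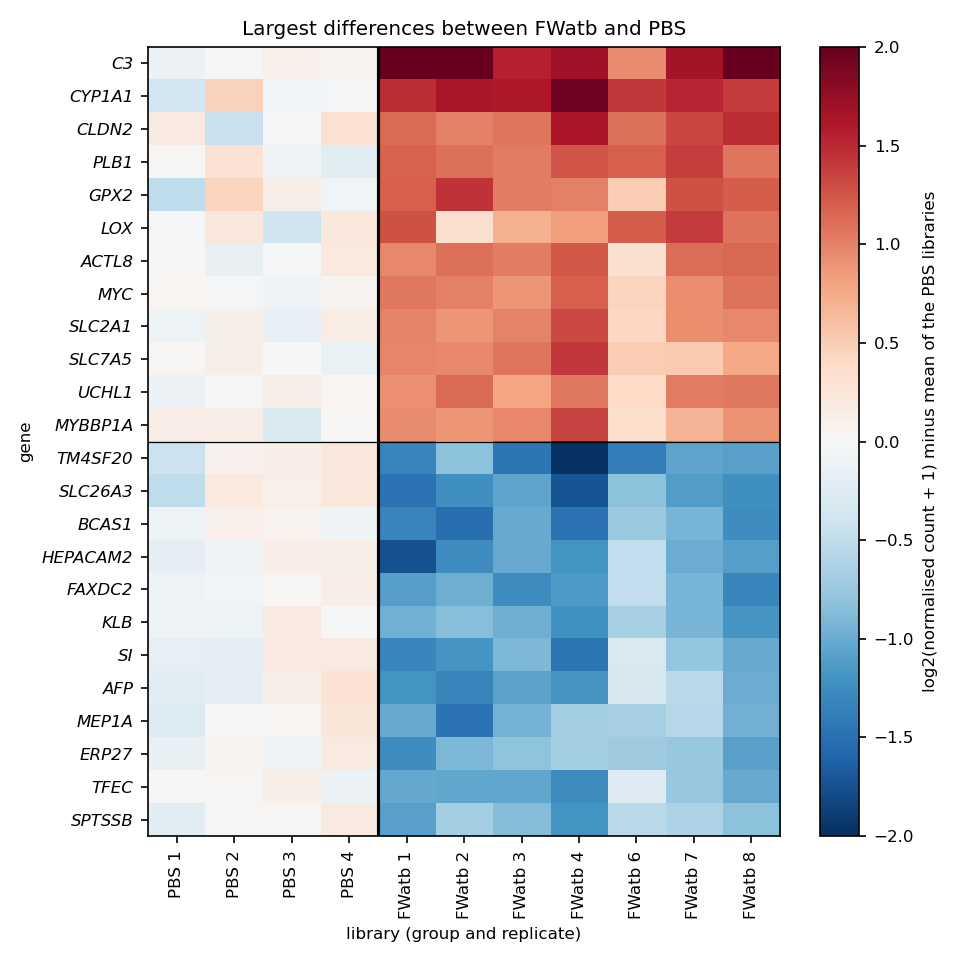
Log2(normalised count + 1) minus the mean of the 4 PBS libraries (colour) for the 12 largest rises and 12 largest falls (rows) in each PBS and FWatb library (columns). Rises are red in all 7 FWatb columns and falls blue, and the column of FWatb replicate 6 is paler for C3, MYC, SI and TFEC, at levels closer to PBS, but not for CYP1A1, PLB1 or TM4SF20.

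Most of the listed genes of ribosome production and of nucleotide synthesis rose. Ribosome biogenesis takes place in the nucleolus, where RNA polymerase I copies the ribosomal DNA and many factors fold and trim the transcript, and MYC is a known inducer of it. MYC was 742, 715, 689 and 755 in PBS replicates 1 to 4 and between 984 and 1667 (median 1460.1) in the 7 FWatb libraries (log2 fold change 0.96 ± 0.09 SE, adjusted p = 2.51e-09). All FWatb libraries were above all PBS libraries, FWatb replicate 6 at 984 and the others at 1332 to 1667. Of 47 ribosome biogenesis factors, 40 rose and none fell, against 6.04% and 3.95% of all genes, with a median log2 fold change of 0.51 beside 0.00 over all genes. This list was added after values of some members had been seen. In the high-rDNA libraries 37 of the 47 rose (background 4.19%) with a median of 0.58, and without FWatb replicate 6 the count was 44 (background 7.73%). MYBBP1A, a nucleolar MYB-binding protein, was 126, 127, 94.7 and 118 in PBS replicates 1 to 4 and between 148 and 298 (median 217) in the 7 FWatb libraries (log2 fold change 0.90 ± 0.13 SE, adjusted p = 7.56e-06). URB1 and URB2, factors of large subunit assembly, also rose. URB1 ranged from 206 to 299.7 under PBS and from 369 to 546 under FWatb, with a log2 fold change of 0.89 (adjusted p = 1.26e-07). URB2 ranged from 131 to 178 under PBS and from 245 to 300.1 under FWatb, with a log2 fold change of 0.83 (adjusted p = 1.34e-07). The polymerase I subunits POLR1A and POLR1B had log2 fold changes of 0.61 (adjusted p = 1.81e-06) and 0.73 (adjusted p = 2.1e-08). NOP2 had the largest log2 fold change of the list (1.75, adjusted p = 0.0104), at a level of 4.75 to 12.3 under FWatb. FBL, GAR1, NOB1, NOP14, RRS1, IMP3 and IMP4 did not pass (log2 fold changes 0.02 to 0.45). The share of counts on ribosomal DNA transcripts differed between the library sets as given above, and its part in these values was not tested.

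Of 17 enzymes of polyamine and nucleotide synthesis, 14 rose and none fell (median log2 fold change 0.49, 0.54 in the high-rDNA libraries, where 13 higher and 0 lower passed). This list too was added after some values had been seen. Over all genes, 6.04% rose and 3.95% fell, and 4.19% and 1.97% in the high-rDNA libraries. ODC1, ornithine decarboxylase and the entry into polyamine synthesis, was 846, 821, 861 and 886 in PBS replicates 1 to 4 and between 1008 and 1681 (median 1446) in the 7 FWatb libraries (log2 fold change 0.75 ± 0.09 SE, adjusted p = 2.34e-07). SRM, spermidine synthase, ranged from 49.7 to 79.7 under PBS and from 97.6 to 151 under FWatb (log2 fold change 0.81 ± 0.13 SE, adjusted p = 2.02e-05). NME1, a nucleoside diphosphate kinase, ranged from 205 to 294 under PBS and from 319 to 530.1 under FWatb (log2 fold change 0.78 ± 0.12 SE, adjusted p = 9.54e-06). CAD, which opens pyrimidine synthesis, had a log2 fold change of 0.62 (adjusted p = 2.8e-05), and the purine enzyme GART one of 0.53 (adjusted p = 4.76e-06). SMS, IMPDH2 and DHODH did not pass. None of 30 cytosolic ribosomal protein genes passed in either direction (median -0.13, -0.01 in the high-rDNA libraries). SLC7A5, the large neutral amino acid carrier, was 304, 323, 297 and 273 in PBS replicates 1 to 4 and between 423 and 796 (median 579) in the 7 FWatb libraries (log2 fold change 0.92 ± 0.13 SE, adjusted p = 3.99e-06). Of the 18 amino acid carriers tested, 5 rose and 1, SLC7A7, fell (-0.35, adjusted p = 0.000607). Leaving out 1 library at a time gave 2 to 5 rises. Only SLC7A5 and SLC1A3 rose in the high-rDNA libraries (2 of 18) and none fell, with an adjusted p of 0.066 for SLC7A7.

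Replication genes and histone genes had smaller medians than these lists. Of 26 replication genes, 13 rose and none fell (median 0.28; 11 rose in the high-rDNA libraries with a median of 0.29), and of 22 mitosis genes 4 rose and none fell (median 0.15; 1 rose in the high-rDNA libraries). The background was 6.04% and 3.95%, and 4.19% rose in the high-rDNA libraries. Leaving out 1 library at a time gave 8 to 16 replication and 0 to 6 mitosis genes that rose, and with library size as the only scaling 19 and 8 rose. The difference between the lists was not tested. MCM4 and MCM6, subunits of the replicative helicase, also rose. MCM4 ranged from 1283 to 1602 under PBS and from 1673 to 2338 under FWatb, with a log2 fold change of 0.51 (adjusted p = 3.32e-05). MCM6 ranged from 853 to 998 under PBS and from 1119.9 to 1412 under FWatb, with a log2 fold change of 0.47 (adjusted p = 1.05e-05). Of 20 replication-dependent histone genes tested, 10 rose and none fell (median 0.31). H2BC18 was 1684, 1622, 1736 and 1811 in PBS replicates 1 to 4 and between 2197 and 3184 (median 3012) in the 7 FWatb libraries (log2 fold change 0.74 ± 0.09 SE, adjusted p = 2.34e-07). Histone genes are near-identical copies, so reads of one may be counted on another. In FWatb replicate 6 the median over the histone genes was 0.00 above the PBS mean on the log2 scale and that over the replication genes 0.03, whereas the other FWatb libraries had 0.13 to 0.50 and 0.22 to 0.39. These 2 lists were therefore at PBS level in that library. CDKN1A, the p21 inhibitor of cyclin-dependent kinases, was 354, 477, 469 and 398 in PBS replicates 1 to 4 and between 232 and 364 (median 287) in the 7 FWatb libraries and fell (log2 fold change -0.57 ± 0.10 SE, adjusted p = 0.000105). CDKN2B, another inhibitor, had a log2 fold change of -0.62 (adjusted p = 0.0147). In the BCL2 family of 15 genes, the pro-apoptotic BCL2L11 and BMF fell (-0.44, adjusted p = 0.00228 and -0.32, adjusted p = 0.0255) and no gene rose, but neither passed in the high-rDNA libraries.

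About as many hypoxia and glycolysis genes rose as did not pass the test, and none fell. The hypoxia response is driven by HIF, a factor that is degraded in the presence of oxygen and that binds ACGTG cores in the promoters of glycolytic enzymes and glucose carriers. Of 24 hypoxia genes tested, 13 rose and none fell (median 0.39; 10 higher and 0 lower and a median of 0.47 in the high-rDNA libraries). Of 18 glycolysis genes, 9 rose and none fell (median 0.32; 9 in the high-rDNA libraries, median 0.42). The background for both was 6.04% higher and 3.95% lower, and 4.19% and 1.97% in the high-rDNA libraries. SLC2A1, the basal glucose carrier GLUT1, was 3064, 3549, 2922 and 3623 in PBS replicates 1 to 4 and between 4416 and 8145 (median 6392) in the 7 FWatb libraries (log2 fold change 0.95 ± 0.11 SE, adjusted p = 1.26e-07). The FWatb libraries were all above the PBS libraries, replicate 6 at 4416 and the others at 6062 to 8145. SLC2A3, the high-affinity carrier GLUT3, was 13994, 13238, 13483 and 14374 in PBS replicates 1 to 4 and between 20161 and 27766 (median 23587) in the 7 FWatb libraries (log2 fold change 0.83 ± 0.14 SE, adjusted p = 5.44e-05). HK2, hexokinase 2, ranged from 71.9 to 83.5 under PBS and from 120.5 to 155 under FWatb (log2 fold change 0.85 ± 0.13 SE, adjusted p = 1.03e-05). PDK1, the kinase that closes the entry of pyruvate into mitochondria, ranged from 250.2 to 282 under PBS and from 399 to 559.8 under FWatb (log2 fold change 0.84 ± 0.09 SE, adjusted p = 2.54e-08). HILPDA, a lipid droplet protein, ranged from 72.7 to 92.6 under PBS and from 114 to 179 under FWatb (log2 fold change 0.86 ± 0.12 SE, adjusted p = 2.47e-06). The groups did not overlap for SLC2A3, HK2, PDK1 or HILPDA. LOX, lysyl oxidase, was higher in every FWatb library (138 to 292) than in any PBS library (log2 fold change 1.01 ± 0.17 SE, adjusted p = 6.8e-05), and its lowest FWatb level was just above the highest PBS level. ENO1, PGAM1, LDHA, TPI1, PGK1 and PKM, enzymes of the lower part of glycolysis, had log2 fold changes of 0.65, 0.48, 0.50, 0.37, 0.40 and 0.38. Among the members that did not pass were VEGFA, BNIP3L, P4HA2, MXI1, INSIG2, KDM3A and GAPDH (log2 fold changes 0.02 to 0.22). Of the members tested, 23 of 24 hypoxia genes and 16 of 18 glycolysis genes had a positive value. The lowest values were -0.49 for hypoxia and -0.80 for glycolysis, and neither passed. The hypoxia genes were raised in FWatb replicate 6 as in the others, with a median of 0.41 against 0.19 to 0.67 above the PBS mean, but the glycolysis genes less, with 0.09 against 0.24 to 0.48. The PBS libraries lay between -0.10 to 0.09 for hypoxia and between -0.13 to 0.07 for glycolysis.

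**Figure D3:**
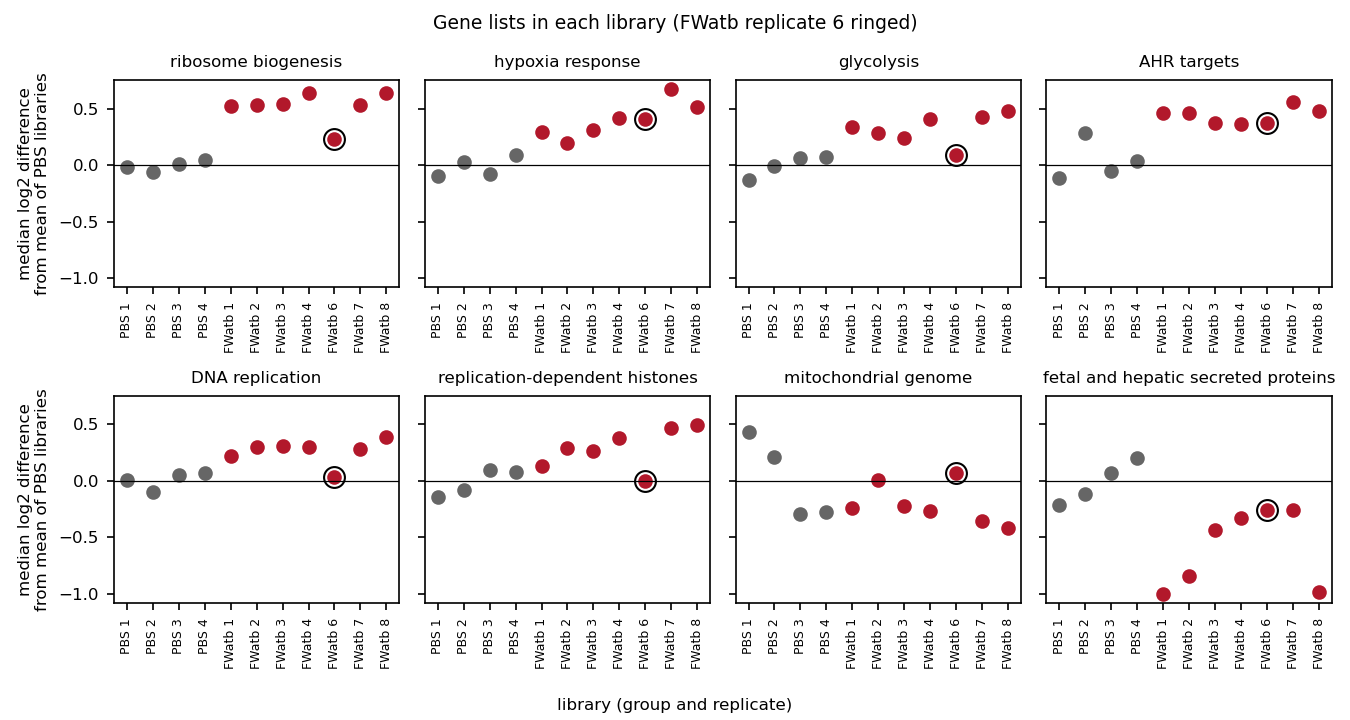
Median over the members of 8 gene lists of the log2 difference from the mean of the PBS libraries (y axis), one point per library, PBS grey and FWatb red, with FWatb replicate 6 ringed. The ringed point is at the level of the PBS libraries for DNA replication and histones, low for ribosome biogenesis and glycolysis, and with the other FWatb libraries for hypoxia and AHR targets; the mitochondrial genome separates PBS replicates 1 and 2 from 3 and 4.

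ANKRD37 and LDHA show what such promoters look like, since a hypoxia gene and a glycolytic enzyme that both rose hold repeated ACGTG cores. The 250 bases before the start that RefSeq gives each gene are printed 5′ to 3′ (GRCh38.p14), at chr4:185396591-185396840, plus strand, and at chr11:18394313-18394562, plus strand. Capitals mark ACGTG or its reverse complement CACGT, overlapping matches joined. The RefSeq start of LDHA lies within a few bases of the GENCODE gene start, whereas that of ANKRD37 lies inside the GENCODE gene, so its sequence overlaps the annotated gene (chr4:185396021-185400628) throughout.
ANKRD37: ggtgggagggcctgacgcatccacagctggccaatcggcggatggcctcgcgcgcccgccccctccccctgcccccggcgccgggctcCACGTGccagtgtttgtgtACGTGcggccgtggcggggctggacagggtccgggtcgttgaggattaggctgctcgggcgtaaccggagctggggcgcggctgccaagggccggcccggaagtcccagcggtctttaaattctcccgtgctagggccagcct
LDHA: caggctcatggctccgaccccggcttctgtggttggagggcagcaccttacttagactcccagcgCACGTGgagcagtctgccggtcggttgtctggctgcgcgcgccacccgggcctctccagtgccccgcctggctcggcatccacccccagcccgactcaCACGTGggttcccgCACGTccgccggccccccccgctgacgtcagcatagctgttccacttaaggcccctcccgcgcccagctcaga
There were 3 matches for ANKRD37 and 5 for LDHA, counting both strands. Each CACGTG holds a match on both strands, so the marked stretches are fewer than the matches. Of 35116 promoters of this length, 18.5% hold at least 1 match, as did 9 of the 20 hypoxia genes and 8 of the 17 glycolysis genes with a promoter in the table. ANKRD37, a HIF target of small size, was 7.55, 27.2, 21.4 and 24.2 in PBS replicates 1 to 4 and between 22.1 and 94.5 (median 54.2) in the 7 FWatb libraries (log2 fold change 1.44 ± 0.27 SE, adjusted p = 0.000275), with overlap between the groups. LDHA, lactate dehydrogenase A, was 2764, 3314, 3088 and 3415 in PBS replicates 1 to 4 and between 3659.5 and 5012 (median 4424) in the 7 FWatb libraries (log2 fold change 0.50 ± 0.08 SE, adjusted p = 6.45e-05), and its groups did not overlap. A match is a description of these letters and does not show that a factor binds there.

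Of the inflammatory genes listed, a minority rose, several of them at low counts. CXCL1 and CCL20 attract neutrophils and lymphocytes and are induced by NF-kB in epithelial cells. CCL20 was 17.0, 9.47, 11.1 and 10.8 in PBS replicates 1 to 4 and between 21.3 and 72.1 (median 42.1) in the 7 FWatb libraries (log2 fold change 1.96 ± 0.26 SE, adjusted p = 1.56e-06). CXCL1 was 10.4, 5.92, 15.9 and 12.8 in PBS replicates 1 to 4 and between 19.3 and 57.8 (median 43.9) in the 7 FWatb libraries (log2 fold change 1.67 ± 0.27 SE, adjusted p = 3.41e-05). The groups did not overlap for either gene, and FWatb replicate 6 was the lowest FWatb library for each, at 21.3 and 19.3. These were 2 of 15 chemokines and cytokines tested that rose (background 6.04%), while IL18 fell (-0.34, adjusted p = 0.0115, background 3.95%) and the median was -0.04. CXCL2, CXCL3 and CXCL8 did not pass (-0.04, adjusted p = 0.947, 0.52, adjusted p = 0.201 and 1.03, adjusted p = 0.3), and reads of CXCL1, CXCL2 and CXCL3 may be exchanged because the genes are close paralogs. Of 15 NF-kB subunits and feedback genes, 5 rose and none fell (median 0.25, background 6.04% and 3.95%), and 3 rose in the high-rDNA libraries (background 4.19%). With 1 library left out, 3 to 8 rose, the highest count being without FWatb replicate 6. The 5 were RELB, an NF-kB subunit (0.91, adjusted p = 0.000835), the deubiquitinase TNFAIP3 (0.51, adjusted p = 0.00344), and the inhibitors NFKBIZ (0.45, adjusted p = 0.000903), NFKBIE (0.35, adjusted p = 0.0224) and NFKBIA (0.33, adjusted p = 0.0344). RELB, NFKBIE, NFKBIA and also IL18 did not pass in the high-rDNA libraries (adjusted p from 0.0661 to 0.251). TNFAIP3 was 121, 128, 139.6 and 112 in PBS replicates 1 to 4 and between 130.1 and 209 (median 183) in the 7 FWatb libraries, and the groups overlapped. Among 16 antimicrobial and acute phase genes tested, C3, NOS2 and PIGR rose. NOS2, the inducible nitric oxide synthase, ranged from 159 to 188 under PBS and from 174 to 282 under FWatb (log2 fold change 0.52 ± 0.12 SE, adjusted p = 0.00205), and PIGR, the receptor that carries IgA, was at 4.72, 5.92, 3.46 and 1.91 in PBS replicates 1 to 4 and between 5.08 and 40.2 (median 12.5) in the 7 FWatb libraries (log2 fold change 2.17 ± 0.46 SE, adjusted p = 0.00135), a low count whose adjusted p in the high-rDNA libraries was 0.097. TLR2, a receptor for bacterial lipopeptides, was the only 1 of 12 microbial sensors tested to rise (0.39, adjusted p = 0.0101, and 0.057 in the high-rDNA libraries). Of 19 interferon-stimulated genes tested, IFIT1, IFIT3 and ISG15 fell and OAS3 rose (median -0.03), but in the high-rDNA libraries IFIT1 alone passed. IFIT1, which binds viral RNA, was 42.5, 40.2, 51.1 and 49.7 in PBS replicates 1 to 4 and between 10.4 and 27.4 (median 19.7) in the 7 FWatb libraries (log2 fold change -1.23 ± 0.19 SE, adjusted p = 2.26e-05), and its high-rDNA value was -1.07 (adjusted p = 0.0181). The high-rDNA values were -0.46 (adjusted p = 0.215) for IFIT3, -0.17 (adjusted p = 0.645) for ISG15 and 0.25 (adjusted p = 0.248) for OAS3.

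The CXCL1 promoter is shown because CXCL1 was 1 of the 2 chemokines that rose and its promoter holds GGAATTTCC, 1 form of the NF-kB motif. The 250 bases before its RefSeq start, which is also its GENCODE start, are at chr4:73869143-73869392, plus strand, in GRCh38.p14 from RefSeq, with the motif in capitals.
CXCL1: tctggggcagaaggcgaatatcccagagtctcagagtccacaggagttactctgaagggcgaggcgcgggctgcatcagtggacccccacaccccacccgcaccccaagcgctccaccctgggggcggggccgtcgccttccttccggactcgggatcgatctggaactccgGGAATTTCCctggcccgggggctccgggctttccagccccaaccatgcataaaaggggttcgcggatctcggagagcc
The motif occurs once in these letters, counting both strands. It is found in 0.4% of 35116 promoters of this length and in 6 of the 16 chemokine and cytokine genes with a promoter in the table (CXCL1, CXCL2, CXCL3, CXCL5, CXCL8 and CXCL10), of which CXCL1 passed the test and CXCL5 was too low to be tested. The match describes the sequence only.

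Ligands of the EGF receptor and the feedback genes of its MAPK pathway also rose in part. Of 18 such genes tested, 6 rose and none fell (median 0.15, background 6.04%), and 5 rose in the high-rDNA libraries (background 4.19%). EREG, epiregulin, was 1683, 1531, 1240.1 and 1457 in PBS replicates 1 to 4 and between 2253 and 2650.2 (median 2529) in the 7 FWatb libraries (log2 fold change 0.74 ± 0.10 SE, adjusted p = 4.38e-06), and AREG, amphiregulin, was 1247, 1286, 1109.5 and 1289 in PBS replicates 1 to 4 and between 1642 and 2208 (median 1943) in the 7 FWatb libraries (log2 fold change 0.63 ± 0.10 SE, adjusted p = 1.7e-05). The groups did not overlap for either ligand. DUSP6, a phosphatase of ERK that reports its activity, was 110.4, 183, 104 and 142 in PBS replicates 1 to 4 and between 169.8 and 361 (median 229) in the 7 FWatb libraries (log2 fold change 0.88 ± 0.15 SE, adjusted p = 8.69e-05), with overlap at PBS replicate 2. ETV5, EPHA2 and SPRED1 also rose (0.71, adjusted p = 0.00255, 0.61, adjusted p = 0.000272 and 0.36, adjusted p = 0.0144). ID1, a target of BMP signals, was 241, 238, 180.4 and 260.1 in PBS replicates 1 to 4 and between 264 and 528 (median 401) in the 7 FWatb libraries (log2 fold change 0.79 ± 0.13 SE, adjusted p = 7.5e-05).

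CYP1A1 had the largest change of the AHR genes. CYP1A1, the AHR-induced cytochrome P450 of polycyclic compounds (chr15:74719542-74725536, GRCh38), was 634, 1147, 804 and 817 in PBS replicates 1 to 4 and between 2183 and 3208 (median 2379) in the 7 FWatb libraries, a 2.93-fold difference of means (log2 fold change 1.55 ± 0.13 SE, adjusted p = 6.41e-11). FWatb replicate 6 was at 2212, with the others, and replicate 4 was the highest at 3208. CYP1A1 was also raised by the antibiotic cocktail without faecal water, by 1.30 (adjusted p = 8.67e-08), and by faecal water of untreated mice, by 4.85 (adjusted p = 1.49e-26). In the direct contrast FWatb did not differ from ATB at the threshold (0.25, adjusted p = 0.177), with levels of 1743 to 2415 under ATB. Of 8 AHR genes tested, 5 rose and none fell (median 0.39, background 6.04% and 3.95%), and 3 of 7 rose in the high-rDNA libraries (background 4.19%). Beside CYP1A1 these were UGT1A6, a glucuronosyltransferase (1.37, adjusted p = 6.8e-05), ALDH3A1, an aldehyde dehydrogenase (0.74, adjusted p = 0.00178), NQO1, a quinone reductase (0.39, adjusted p = 0.00164), and AHR itself (0.39, adjusted p = 0.00502). In the high-rDNA libraries CYP1A1, UGT1A6 and NQO1 passed, and ALDH3A1 and AHR did not (adjusted p = 0.0706 and 0.111). UGT1A1, the bilirubin-conjugating member of the same locus, was 12.3, 36.7, 20.7 and 19.1 in PBS replicates 1 to 4 and between 47.5 and 74.3 (median 57.2) in the 7 FWatb libraries (log2 fold change 1.49 ± 0.20 SE, adjusted p = 1.72e-06). UGT1A1 and UGT1A6 share exons, so their reads cannot be fully told apart. For ATB the log2 fold changes were 0.65 (adjusted p = 0.434) for UGT1A6 and 0.07 (adjusted p = 0.986) for UGT1A1.

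NRF2 is an oxidant-sensing factor. Of 20 of its listed genes, 10 rose and none fell (median 0.23), where 6.04% of all genes rose. In the high-rDNA libraries 4 of the 20 rose and none fell (median 0.28), where 4.19% of all genes rose. HMOX1, heme oxygenase 1, was 51.0, 56.8, 60.8 and 56.1 in PBS replicates 1 to 4 and between 89.4 and 125 (median 107) in the 7 FWatb libraries (log2 fold change 0.89 ± 0.16 SE, adjusted p = 0.000125), GCLM, a subunit of the enzyme of glutathione synthesis, rose without overlap (log2 fold change 0.66 ± 0.12 SE, adjusted p = 0.000215), and TXNRD1, thioredoxin reductase, ranged from 1026 to 1109 under PBS and from 1284 to 1593 under FWatb (log2 fold change 0.39 ± 0.10 SE, adjusted p = 0.0063). SLC7A11, the cystine carrier, was 275, 321, 167 and 231 in PBS replicates 1 to 4 and between 299.6 and 547 (median 386) in the 7 FWatb libraries (log2 fold change 0.74 ± 0.14 SE, adjusted p = 0.000332), with overlap at PBS replicate 2 and a high-rDNA value of 0.45 (adjusted p = 0.0689). NFE2L2, which encodes NRF2, did not pass (-0.04, adjusted p = 0.839). AKR1B10 rose at very low counts (from 4.73 to 8.49 under PBS and from 9.35 to 20.4 under FWatb).

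Some of the efflux pumps of drugs rose. ABCB1, the P-glycoprotein that returns drugs to the gut lumen (chr7:87503017-87713323, GRCh38), was 1221, 1094, 1159 and 1289 in PBS replicates 1 to 4 and between 1791 and 2228 (median 1833) in the 7 FWatb libraries, a 1.6-fold difference of means (log2 fold change 0.67 ± 0.09 SE, adjusted p = 1.39e-06). The FWatb libraries were all above the PBS libraries, FWatb replicate 6 among them at 1791. Within the high-rDNA libraries the log2 fold change was 0.71 (adjusted p = 0.000204). Under ATB it was 0.25 (adjusted p = 0.395) and under FWctl -0.38 (adjusted p = 0.000614), and FWatb was higher than ATB by 0.42 (adjusted p = 0.000561) and higher than FWctl by 1.05 (adjusted p = 1.43e-14). Of 9 efflux pumps, 5 rose and none fell (median 0.32, background 6.04% and 3.95%), and 3 rose in the high-rDNA libraries (background 4.19%). ABCG2, the breast cancer resistance protein, was 352, 308, 323 and 377 in PBS replicates 1 to 4 and between 408 and 517 (median 491) in the 7 FWatb libraries (log2 fold change 0.49 ± 0.08 SE, adjusted p = 5.44e-05), and ABCC1, ABCC4 and ABCC2 had log2 fold changes of 0.53 (adjusted p = 0.00502), 0.32 (adjusted p = 0.00117) and 0.22 (adjusted p = 0.0361). ABCC1 and ABCC2 did not pass in the high-rDNA libraries (adjusted p = 0.0571 and 0.075). NR1I3, the constitutive androstane receptor that controls drug metabolism genes, was 43.4, 43.8, 40.8 and 30.6 in PBS replicates 1 to 4 and between 32.7 and 62.7 (median 48.5) in the 7 FWatb libraries, and its log2 fold change did not pass (0.28, adjusted p = 0.373). None of the 23 nuclear receptors for drugs and hormones tested rose, while NR3C1, the glucocorticoid receptor, and THRB, a thyroid hormone receptor, fell (-0.50, adjusted p = 0.000551 and -0.39, adjusted p = 0.000574). Among 13 uptake carriers tested, 5 rose and SLCO2B1 fell (-0.23, adjusted p = 0.0332), and 4 rose and none fell in the high-rDNA libraries. SLC19A1, the reduced folate carrier, ranged from 115 to 144 under PBS and from 169.7 to 322 under FWatb (log2 fold change 0.80 ± 0.13 SE, adjusted p = 3.23e-05), SLC46A1, the proton-coupled folate carrier, had 0.28 (adjusted p = 0.0307), and SLC16A1, the carrier of lactate and short-chain fatty acids, had 0.34 (adjusted p = 0.000554). None of 9 genes of bile acid handling tested passed.

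**Figure D4:**
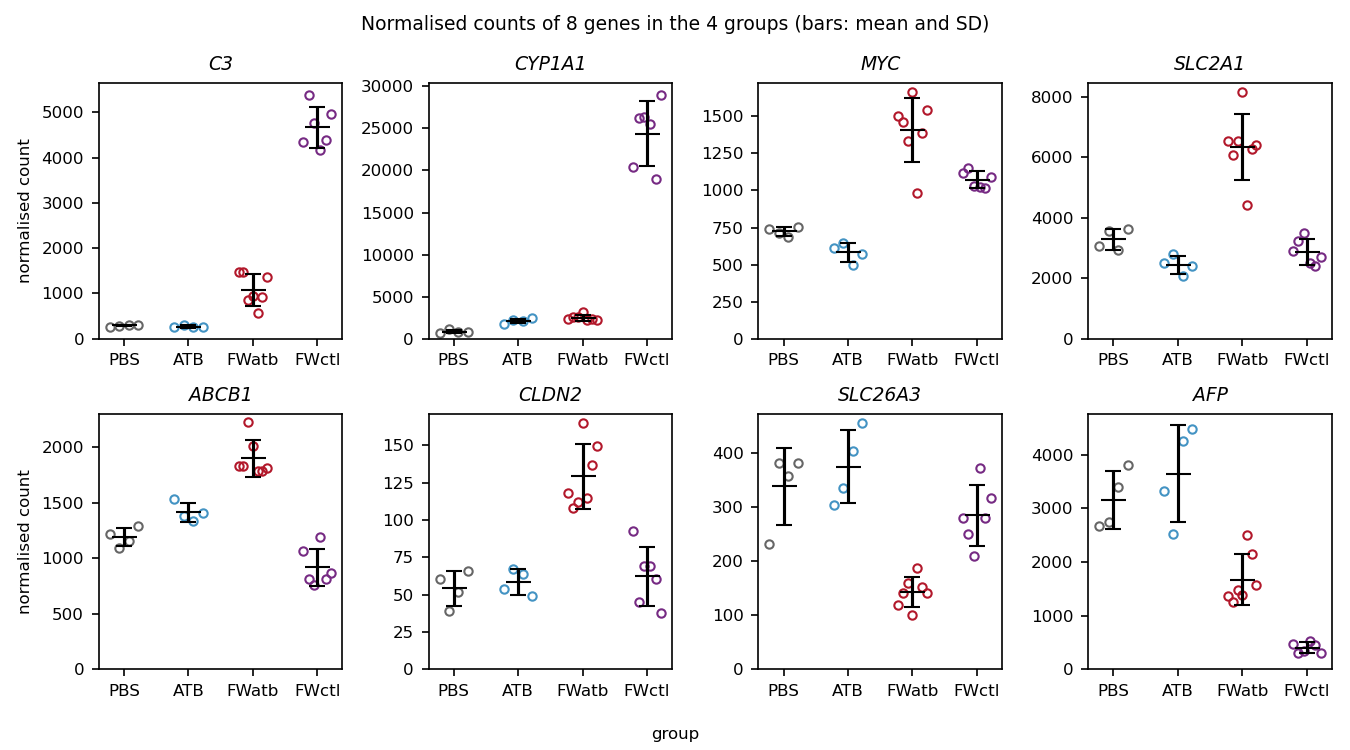
Normalised counts (y axis) of 8 genes in the PBS, ATB, FWatb and FWctl libraries, one point per library with the mean and SD of each group; FWctl replicate 1 is left out. FWatb is above PBS for C3, CYP1A1, MYC, SLC2A1, ABCB1 and CLDN2 and below it for SLC26A3 and AFP, and the ATB libraries lie below PBS for MYC and SLC2A1 and between PBS and FWatb for ABCB1. For CYP1A1, 3 of the 4 ATB libraries lie below every FWatb library and above every PBS library, and 1 lies among the FWatb libraries.

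The large falls include genes of the absorptive epithelium. SLC26A3, the chloride and bicarbonate exchanger of the colon, was 232, 381, 357 and 382 in PBS replicates 1 to 4 and between 99.7 and 187 (median 142) in the 7 FWatb libraries (log2 fold change -1.24 ± 0.14 SE, adjusted p = 2.98e-08). PBS replicate 1 was the lowest PBS library, still above the highest FWatb library. SI, sucrase-isomaltase of the brush border, was 419, 412, 527 and 529.8 in PBS replicates 1 to 4 and between 169.6 and 379 (median 232) in the 7 FWatb libraries (log2 fold change -0.96 ± 0.15 SE, adjusted p = 2.42e-05), with the highest FWatb level in replicate 6 at 379 and the others at 169.6 to 274. MEP1A, the alpha subunit of the brush border protease meprin, was 209.5, 252, 259 and 298 in PBS replicates 1 to 4 and between 89.8 and 169.8 (median 131) in the 7 FWatb libraries (log2 fold change -0.90 ± 0.14 SE, adjusted p = 1.71e-05). TM4SF20, a membrane protein of the tetraspanin-like L6 family, was 336, 483, 496 and 532 in PBS replicates 1 to 4 and between 115 and 258 (median 182) in the 7 FWatb libraries (log2 fold change -1.29 ± 0.14 SE, adjusted p = 2.1e-08). In these genes no FWatb level reached the PBS levels, which was a condition for choosing them. KLB, beta-klotho and the co-receptor of FGF19, ranged from 395 to 480.4 under PBS and from 183 to 267 under FWatb (log2 fold change -0.97 ± 0.10 SE, adjusted p = 8.15e-09), and TFEC, a transcription factor of the MITF family, ranged from 1732 to 2043 under PBS and from 792 to 1585 under FWatb (log2 fold change -0.88 ± 0.13 SE, adjusted p = 5.25e-06). BCAS1, HEPACAM2, FAXDC2, ERP27 and SPTSSB were the other large falls, with log2 fold changes of -1.16, -1.08, -1.02, -0.89 and -0.83. For SI and HEPACAM2 the antibiotic cocktail gave the opposite sign (0.76, adjusted p = 0.0219 and 0.60, adjusted p = 0.0337). Of 21 brush border and enterocyte genes tested, only SI, FABP1 and MYO1A fell (-0.96, adjusted p = 2.42e-05, -0.56, adjusted p = 0.000362 and -0.41, adjusted p = 0.0024), and ALPP rose at low counts (from 3.77 to 10.7 under PBS and from 12.2 to 26.0 under FWatb). MYO1A and ALPP did not pass in the high-rDNA libraries. Over all genes, 6.04% rose and 3.95% fell in the 4-group fit. VIL1, CDX2, HNF4A, EPCAM and CDH1, which mark the identity of the cells, did not pass (log2 fold changes -0.12 to 0.13), while the keratins KRT18 and KRT8 rose (0.61, adjusted p = 5.35e-05 and 0.48, adjusted p = 0.00175). The groups overlapped for both keratins through FWatb replicate 6, which lay at PBS level (3652 and 6174).

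Caco-2 cells also make proteins that the fetal liver secretes. Of 12 such genes, 7 fell and none rose (median -0.53, against 3.95% of all genes), and in the high-rDNA libraries 4 fell (median -0.36, against 1.97%). ALB, albumin, was 585, 587, 828 and 922 in PBS replicates 1 to 4 and between 251 and 594 (median 297) in the 7 FWatb libraries (log2 fold change -1.05 ± 0.18 SE, adjusted p = 6.78e-05), and FWatb replicate 6 reached the lowest PBS levels. AFP, alpha-fetoprotein, was 2671, 2744, 3405 and 3811 in PBS replicates 1 to 4 and between 1256 and 2497 (median 1486) in the 7 FWatb libraries (log2 fold change -0.92 ± 0.15 SE, adjusted p = 3.04e-05). FGA, FGB and FGG, the 3 chains of fibrinogen, had log2 fold changes of -0.66 (adjusted p = 0.00121), -0.78 (adjusted p = 0.000407) and -0.79 (adjusted p = 0.000243). TTR, transthyretin, and AHSG, fetuin A, also fell (-0.35, adjusted p = 0.0248 and -0.40, adjusted p = 0.0308). PBS replicates 1 and 2 were lower than PBS replicates 3 and 4 (medians over 11 of the genes -0.21, -0.11, 0.07 and 0.20 from the PBS mean), so the fall measured against the high-rDNA PBS libraries was smaller, as for ALB at -0.73 (adjusted p = 0.0165) and FGA at -0.39 (adjusted p = 0.189). The FWatb medians ran from -0.998 in replicate 1 to -0.26 in replicate 6. Under ATB the log2 fold changes of FGA, FGB and FGG were positive (0.78, adjusted p = 0.0173, 0.64, adjusted p = 0.0647 and 0.73, adjusted p = 0.0377).

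Some genes of sterol and lipid synthesis fell by small amounts. Of 25 cholesterol synthesis and uptake genes, 9 fell and none rose (median -0.18, background 3.95%), and 4 fell in the high-rDNA libraries (background 1.97%). With library size as the only scaling, 4 fell. INSIG1, which holds the sterol sensor in the endoplasmic reticulum, was 3548, 3905, 4193 and 4019.8 in PBS replicates 1 to 4 and between 2522 and 3220.4 (median 2974) in the 7 FWatb libraries (log2 fold change -0.44 ± 0.09 SE, adjusted p = 0.00117). MSMO1 and SC5D, enzymes of the last steps, had log2 fold changes of -0.38 (adjusted p = 0.00176) and -0.35 (adjusted p = 0.000412). Of 15 fatty acid synthesis genes, 1 rose and 2 fell (median -0.06). ME1, malic enzyme, rose (0.25, adjusted p = 0.012), but not in the high-rDNA libraries (adjusted p = 0.0637). SCD, the stearoyl-CoA desaturase, ranged from 37048 to 38631 under PBS and from 26830.5 to 31479 under FWatb (log2 fold change -0.39 ± 0.09 SE, adjusted p = 0.00249), and ACSS2, acetyl-CoA synthetase, ranged from 3129 to 3353 under PBS and from 2359.7 to 2720.0 under FWatb (log2 fold change -0.36 ± 0.07 SE, adjusted p = 0.000272), and both fell in the high-rDNA libraries too. In lipoprotein assembly APOH, DGAT2 and APOE fell (-0.60, adjusted p = 0.000185, -0.37, adjusted p = 0.000177 and -0.35, adjusted p = 0.00135), 3 of 12 genes. FABP1, the liver fatty acid binding protein, was 443, 620.0, 523 and 481 in PBS replicates 1 to 4 and between 298 and 438 (median 334) in the 7 FWatb libraries (log2 fold change -0.56 ± 0.11 SE, adjusted p = 0.000362), and PLIN2 of lipid droplets rose (0.41, adjusted p = 0.00346). Of 11 iron handling genes, 3 rose and 2 fell (median 0.05, background 6.04% and 3.95%), and 2 rose and 1 fell in the high-rDNA libraries (background 4.19% and 1.97%). The rises were TFRC and SLC11A2, which take iron up, and the reductase STEAP3 (0.28, adjusted p = 0.0176, 0.45, adjusted p = 0.000271 and 0.46, adjusted p = 0.00599). SLC40A1, the iron exporter ferroportin, fell and ranged from 2144 to 2626 under PBS and from 1468 to 1829 under FWatb (log2 fold change -0.53 ± 0.07 SE, adjusted p = 3.54e-06), and CYBRD1, a ferric reductase of iron uptake, fell too (-0.24, adjusted p = 0.0101). STEAP3 and CYBRD1 did not pass in the high-rDNA libraries (adjusted p = 0.0876 and 0.217).

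No gene of 18 of the unfolded protein response passed (median 0.04). In the integrated stress response, which reads amino acid shortage, 5 of 21 genes rose and 2 fell (median 0.08), and in the high-rDNA libraries 2 rose and none fell. TRIB3 and CEBPG fell (-0.34, adjusted p = 0.00158 and -0.26, adjusted p = 0.0108) and ASNS, PSAT1, PSPH, SHMT2 and SLC7A11 rose by 0.32 to 0.74, ASNS at a level of at most 27.1. HSP90AA1, a chaperone, was 1771, 1736, 1662 and 1970.0 in PBS replicates 1 to 4 and between 2398 and 2805 (median 2517) in the 7 FWatb libraries (log2 fold change 0.52 ± 0.08 SE, adjusted p = 2.13e-05). The metallothioneins MT2A and MT1X rose at levels of at most 20.2 and 10.4, and members of this family share reads. Of 20 nuclear genes of mitochondrial translation and transcription, 10 rose and none fell (median 0.30), and 10 rose in the high-rDNA libraries (median 0.41). Over all genes, 6.04% rose and 3.95% fell, and 4.19% and 1.97% in the high-rDNA libraries. GFM1 and MRPL3 were at 0.44 (adjusted p = 0.000123) and 0.44 (adjusted p = 0.000151). Of the 13 genes of the mitochondrial genome, MT-CO1 and MT-CO2 fell and none rose (median -0.24), and 9 fell in the high-rDNA libraries (median -0.49). MT-CO1, cytochrome oxidase subunit 1, was 44046, 41709.6, 33311 and 34606 in PBS replicates 1 to 4 and between 28375 and 32755 (median 29281) in the 7 FWatb libraries (log2 fold change -0.37 ± 0.09 SE, adjusted p = 0.00765). PBS replicates 1 and 2 were above PBS replicates 3 and 4 for this list (medians 0.43 and 0.21 against -0.29 and -0.28), so the size of the fall depends on which PBS libraries are used. MALAT1, an abundant nuclear RNA, was 17093, 19153, 13278 and 15529.5 in PBS replicates 1 to 4 and between 9529.7 and 16758 (median 10407) in the 7 FWatb libraries (log2 fold change -0.51 ± 0.13 SE, adjusted p = 0.00673), with overlap through FWatb replicate 6. Circadian genes PER3, TEF, NR1D2 and CRY2 fell (-0.42, adjusted p = 0.00172, -0.30, adjusted p = 0.0106, -0.28, adjusted p = 0.0102 and -0.27, adjusted p = 0.0391) among 15 tested, and BHLHE40 rose (0.52, adjusted p = 0.018). Of these 5, PER3 alone passed in the high-rDNA libraries.

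The remaining lists held few genes that passed, and fewer in the high-rDNA libraries for most of them. Over all genes, 6.04% rose and 3.95% fell, and 4.19% and 1.97% in the high-rDNA libraries. Among sugar carriers 4 of 13 rose, SLC2A1, SLC2A3, SLC2A5 and SLC2A8, the last by 0.46 (adjusted p = 0.000587), and SI and SLC5A9 fell. Restricted to the high-rDNA libraries, 4 rose and SI fell. Of 22 drug conjugation and oxidation enzymes, 4 rose and 4 fell, with CYP2S1 at 0.70 (adjusted p = 0.000792) and GSTP1 at 0.41 (adjusted p = 0.00108) on the one side and SULT1B1, a sulfotransferase, at -0.60 (adjusted p = 0.00405) on the other. The same list had 4 that rose and 1, SULT1B1, that fell in the high-rDNA libraries. In the ion and fluid list of 21, AQP10 and CA12 rose (1.01, adjusted p = 0.0169 and 0.52, adjusted p = 0.012) and 4 fell, SLC26A3 among them and AQP3 by -0.33 (adjusted p = 0.00633). Only SLC26A3 of these passed in the high-rDNA libraries. Of 14 tight junction genes CLDN2 rose and OCLN, occludin, and MARVELD2, tricellulin, fell (-0.21, adjusted p = 0.0347 and -0.27, adjusted p = 0.0045), but OCLN and MARVELD2 did not pass in the high-rDNA libraries. AGR2, a disulfide isomerase needed for mucin folding, was the 1 of 8 mucin and trefoil genes to fall (-0.46, adjusted p = 0.0021), and none passed in the high-rDNA libraries. SPINK1, a trypsin inhibitor, fell (-0.43, adjusted p = 0.00173) with 3 others of 26 proteases and inhibitors, and none of the 26 passed in the high-rDNA libraries. TSC22D3, a glucocorticoid target, fell (-0.78, adjusted p = 0.0121), while FKBP5 and SGK1 of the same list of 10 rose (0.50, adjusted p = 0.00117 and 0.33, adjusted p = 0.0021), SGK1 alone also in the high-rDNA libraries. Of 15 Wnt genes 4 rose, MYC, LGR5, ASCL2 and LEF1, of which 1 passed in the high-rDNA libraries. FOS and MYC rose among 19 immediate early genes, with FOS at 0.54 (adjusted p = 0.0151). The antibiotic cocktail alone raised FOS by 1.26 (adjusted p = 5.93e-06), and FWatb was lower than ATB for it (-0.72, adjusted p = 0.000163). SMAD7 and TGFBI fell in the TGF-beta and BMP list of 14 (-0.46, adjusted p = 0.00852 and -0.25, adjusted p = 0.0207) and 2 rose, ID1 among them, while in the high-rDNA libraries 2 rose and none fell. Of 10 retinoid genes 2 fell, and 1 did in the high-rDNA libraries. None of 5 creatine genes passed.

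A few differences rested on the low-rDNA PBS libraries. Among 1973 genes with a symbol that passed in the 4-group fit, 24 had a log2 fold change in the high-rDNA libraries that was less than 50% of the first or of opposite sign. They included 5 small nucleolar or Cajal body RNAs. SNORA12 was 217, 226, 629.7 and 414 in PBS replicates 1 to 4 and between 158 and 263 (median 189.8) in the 7 FWatb libraries, with a log2 fold change of -0.86 (adjusted p = 0.00225) in the 4-group fit and -0.09 (adjusted p = 0.824) in the high-rDNA libraries. SCARNA6 was 408, 477, 1128 and 664 in PBS replicates 1 to 4 and between 327 and 515 (median 421) in the 7 FWatb libraries, with -0.72 (adjusted p = 0.00411) and -0.10 (adjusted p = 0.782). For both, PBS replicates 3 and 4 were high and PBS replicates 1 and 2 lay in or near the FWatb range. SCARNA5 and SNORD17 followed the same pattern, at -0.13 (adjusted p = 0.607) and 0.03 (adjusted p = 0.95) in the high-rDNA libraries, and so did ITIH2, at -0.07 (adjusted p = 0.884). TBX3, a transcription factor, rose by 0.65 (adjusted p = 0.00286) and by 0.31 (adjusted p = 0.341) in the high-rDNA libraries. Between PBS replicates 1 and 2 and PBS replicates 3 and 4 alone, 94 of 17035 genes differed. SNORD3B-1, a copy of the U3 small nucleolar RNA, had levels of 136657, 71034, 1611 and 188659 in PBS replicates 1 to 4 and 990.2 to 2174 under FWatb, so it was high in 3 PBS libraries only, and its near-identical copies share reads.

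Compared directly with the antibiotic cocktail, 1560 genes (7.66%) were higher and 1398 (6.86%) lower under FWatb. The FWatb libraries are the same as in the comparison with PBS, so an agreement of the 2 contrasts is not independent support. Of the genes with the largest rises over PBS, C3 differed from ATB by 2.04 (adjusted p = 5.27e-12), MYC by 1.28 (adjusted p = 8.48e-13), SLC2A1 by 1.38 (adjusted p = 1.3e-11), CLDN2 by 1.17 (adjusted p = 2.19e-06) and CYP1A1 by 0.25 (adjusted p = 0.177), which did not pass. For the 12 largest falls the differences from ATB ran from -1.68 for HEPACAM2 and -1.72 for SI to -0.80 for TFEC. The hypoxia gene ANKRD37 differed by 1.72 (adjusted p = 1.77e-05). The ribosome biogenesis factors were higher than under ATB in 41 of 47 genes and lower in none, and the glycolysis genes in 11 of 18. ATB libraries are mostly in the low-rDNA set (3 of 4), so treatment and library set are mixed in this contrast, and with the set as a term 1269 genes were higher and 908 lower. Compared with FWctl, 4762 genes (23.4%) were higher and 5180 (25.4%) lower under FWatb. C3 was lower than under FWctl, at -2.11 (adjusted p = 4.8e-18), with FWctl levels of 4170.0 to 5389.8. MYC was higher than under FWctl by 0.39 (adjusted p = 5.12e-05), SLC2A1 by 1.14 (adjusted p = 2.8e-13) and CLDN2 by 1.04 (adjusted p = 1.51e-07). SLC26A3 was lower than under FWctl, at -0.98 (adjusted p = 2.03e-08), and TM4SF20, at -1.33 (adjusted p = 9.05e-12). AFP was higher than under FWctl, at 2.05 (adjusted p = 2.91e-15). For the integrated stress response, all 21 genes were lower under FWatb than under FWctl, and the hypoxia genes were higher in 15 and lower in 4 of 24.

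The 7 FWatb libraries come from 7 mice. The median SD of log2 levels over 9170 genes with a mean level of at least 100 was 0.133 in the FWatb libraries and 0.113 in the 4 PBS libraries. By counts, the chi-square per degree of freedom between pairs of libraries ran from 3.61 to 16.4 within FWatb and from 5.64 to 45.3 within PBS. The order of the groups therefore depends on the measure. Within PBS it was 5.64 between replicates 1 and 2 and 25.7 to 45.3 for pairs with a low-rDNA library. Low-rDNA PBS libraries are also deeper, and the part of depth or library set was not tested. The genes with the largest SD were RN7SL5P, SLC2A5, C3, NEAT1, FTX, HELLPAR, RPS16, EPIC1, ALB and ZBTB47-AS1. SLC2A5, the fructose carrier, was 54.7, 61.5, 60.1 and 96.3 in PBS replicates 1 to 4 and between 59.0 and 174 (median 144) in the 7 FWatb libraries (log2 fold change 0.94 ± 0.19 SE, adjusted p = 0.00063). NEAT1, the RNA of nuclear paraspeckles, was 4031, 4662, 2289.5 and 3289.8 in PBS replicates 1 to 4 and between 1961 and 5320.0 (median 2181) in the 7 FWatb libraries, and FWatb replicate 6 was the highest, at 5320.0, with the others at 1961 to 3042. FTX was at 831 in that library and 306 to 497 in the others. In the genes that passed without FWatb replicate 6 and had a mean level of at least 100, its own median rise over the PBS mean was 0.12 over 1377 genes, against 0.35 for the mean of the other 6 libraries. For the fallen genes it was -0.21 over 648 genes, against -0.34. In the same exercise the ratio of the left-out library to the others lay between 0.97 and 1.22 for rises and between 0.776 and 1.12 for falls in each of the other 6 libraries. Total counts of FWatb replicate 6 (10596342) and its ribosomal DNA share (2.85%) lay within the range of the other FWatb libraries, and its number of genes with more than 5 counts, 17842, was the highest of the 7. Across genes, the deviation of FWatb replicate 6 from its group mean correlated with that of FWctl replicate 6, the library of the same number, at r = 0.453, the highest of the 6 same-numbered FWatb and FWctl pairs. Genes are not independent replicates, and what made the library differ was not tested.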

How the data were processed

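Total RNA of Caco-2 cells was depleted of ribosomal RNA and sequenced, and raw read counts per gene were deposited by the authors for 22 samples, 61487 genes in all. Per the submitters' processing notes, reads were handled with Trimmomatic 0.38, HISAT2 2.1.0 and featureCounts of Subread 2.0.0. How featureCounts treated strand is not given in the sources used here, so antisense and overlapping genes cannot be fully told apart. Symbols and positions came from GENCODE release 44 (GRCh38), which held 61369 of the gene identifiers. Groups were taken from the treatment labels.

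A gene was tested where 3 samples or more had over 5 counts, counts were normalised by TMM, and edgeR 4.0.16 (R 4.3.3) quasi-likelihood tests were run on PBS, ATB, FWatb and FWctl together, giving Benjamini-Hochberg adjusted p-values over all genes tested, with 0.05 as the threshold. FWctl replicate 1 was left out of this fit: the study's methods exclude an unnamed FWctl outlier, and taking it to be this library is an assumption made here. A second fit held only high-rDNA libraries, with ATB left out. Normalised counts are counts scaled by TMM to the same library size in every sample, and log2 differences per library used a pseudocount of 1. Permutation tests were exact and two-sided (scipy 1.17.1). The fit was also run on simulated counts with known changes. These held no difference between library sets and no deviating library, so the run cannot judge the fit under those conditions, and its outcome is not used here. Alternatives were DESeq2 1.42.0, other scalings and filters, the library set as a term, a replicate block and leaving out each library. Total counts of 9085215 to 18449825 limit precision for genes of low level.

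The named genes are the 12 largest rises and falls (mean level at least 100, no overlap, past the threshold in both fits), up to 5 called members of each list with those that give it its role, ABCB1 and NR1I3, the 10 genes with the largest SD under FWatb, and up to 6 genes whose fold change shrank to under 50% or turned in the high-rDNA fit. Further list members are named from the table of list members. The members and lists were chosen with earlier results of these data known, and 3 of 56 lists were added after values of some members were seen. Results for some genes are not reported here.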

Additional observations from a re-analysis of the deposited data

Results flagged for a closer look

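The PBS and the FWatb libraries were examined as groups for the 24 genes with the largest changes, ABCB1, NR1I3 and 4 library measures, 60 groups in all, and 5 values lay apart from the rest of their group by Dixon's criterion, where chance gives about 3.0 (1 in 20). CYP1A1 was at 3207.8 in FWatb replicate 4, and the nearest other FWatb library was at 2589. ACTL8 was at 654.5 in FWatb replicate 6 and at 1017 or more in the others. FAXDC2 was at 166.7 in FWatb replicate 6, with the next library at 123.8. TFEC was at 1585.3 in FWatb replicate 6, with the next library at 1113. SLC26A3 was at 232.1 in PBS replicate 1, with the next PBS library at 356.7. In the last 4 cases the value lies on the side of the other group, and the groups still did not overlap.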

How the results depend on the processing

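The count of 2035 genes past the threshold for FWatb against PBS was 1227 with all 22 samples in the model, 1127 in the high-rDNA libraries, 827 with PBS replicates 3 and 4 as the only PBS libraries and 115 with an absolute log2 fold change above 1 as well. It was 3216 with a replicate block, in a fit of the 11 PBS and FWatb samples alone. The same 11 samples gave 2385 without a block. FWatb libraries with no PBS library of the same number, FWatb replicate 6 among them, add nothing to the blocked contrast. The block and the loss of these libraries therefore act together in the count of 3216, and their parts were not tested. Same-numbered FWatb and PBS libraries had correlations of deviations from 0.02 to 0.126 over 4 pairs (mean 0.06). The 24 other pairs had -0.303 to 0.303 (mean -0.01). So few pairs cannot decide whether the numbers pair the samples. Leaving out 1 library gave 1334 (PBS replicate 2) to 2589 (FWatb replicate 6) genes. In the high-rDNA libraries the count of 1127 ranged from 140 (without PBS replicate 2) to 2169 (without FWatb replicate 6) and was 292 without PBS replicate 1, where 1 PBS library remains and is assumed to vary like the others. Under DESeq2, DESeq2 size factors, library size alone, both filters, removal of ribosomal DNA transcripts, the 11 samples alone and the library set as a term, the count stayed between 1727 and 2501. Of 196 named genes past the threshold, 159 stayed past it in the same direction with the library set as a term and 124 in the high-rDNA libraries. The count of 124 is partly fixed by the choice of genes. The largest rises and falls had to pass there, and up to 6 others were picked because they shrank or turned there. SNORD17 turned from -0.52 to 0.027 in the high-rDNA libraries, and RN7SL5P, which did not pass (0.23), turned to -1.37 with the replicate block. The cause of these changes was not tested. For FWatb against FWctl, from the same mice, the count was 9774 with the replicate block, in a fit of these groups alone. It was 9942 in the 4-group fit without a block. For FWatb against ATB the count was 2177 with the library set as a term and 2958 without it. Only 2 PBS libraries share the high-rDNA set with FWatb, which limits every value taken there.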
